A study of Cyprinus carpio 'koi' with 9 samples.

Results

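Black skin (BS) was set against white skin (WS) of Koi carp, the ornamental form of the common carp, in 6 of the 9 RNA-seq libraries of the series. The 3 BS and 3 WS libraries were chosen by the skin color in the sample labels, and the 3 libraries of red skin (RS) were read only beside them. The labels name the FFRC strain, an average weight of 200 g, water at 24 °C and 12 h of light, and they say that all 3 colors were taken from each of 3 fish under MS-222 anaesthesia. The study's methods give a higher average weight than the labels. The labels name no treatment, and BS and WS shared strain, tank conditions and sampling, while the age, the sex and the body position of each patch are not given in the sources used here. Libraries are numbered 1 to 3 within each color, and BS1 was paired with WS1, BS2 with WS2 and BS3 with WS3.

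Black color in fish comes from melanin, which neural crest-derived pigment cells (melanophores) make and store in melanosomes. Tyrosinase starts melanin synthesis from tyrosine, tyrosinase-related protein 1 acts later in the same pathway, and Mitf is the transcription factor that turns on these genes. Agouti signaling protein (Asip) is a secreted antagonist of melanocortin receptors, and in zebrafish it is known for the pale belly.

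The measured units are genes assembled from the reads, called features here, and each has an expected count (read pairs assigned by the authors' software) and an FPKM (read pairs per kilobase, scaled by library size). Total expected counts were 14812893 to 25002494 in BS and 13773868 to 23058887 in WS, and the 10 most abundant features took 6.12% to 53.2% of them in BS and 6.16% to 23.8% in WS. The median fragment length was 347 to 360 bp in the libraries numbered 2 and 284 to 295 bp in the BS and WS libraries numbered 1 and 3. Carp genes often have near-identical copies and the library kit does not mark strand, so reads of copies or antisense partners may have been split between features. None of the features named below had exactly the counts of another feature (0 of 47). In bulk skin, fewer cells of a type and less RNA per cell cannot be told apart.

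The first question was which features differ between BS and WS beyond the spread of the pairs. The 3 pairs entered as a block in edgeR's quasi-likelihood test, with Benjamini-Hochberg adjustment giving the FDR, and a call needed an FDR of 0.05 or less and a change of 1 or more on the log2 scale. Of 68812 features tested, 0 (0%) were called. The smallest FDR was 0.308. At an unadjusted p of at most 0.05, 604 features were higher in BS (0.878% of those tested) and 760 were lower (1.1%), together 1364. Without the block 262 features had such a p and again 0 were called. Other tools with the block gave 84 calls (DESeq2), 98 calls (edgeR's likelihood ratio test) and 0 calls (limma-voom and limma-trend), and DESeq2 without the block gave 43.

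The pairs themselves pointed in different directions. Across the 39694 features with at least 20 counts in the higher library of every pair, the log2 ratios of BS over WS had a Pearson's r of -0.20 between pairs 1 and 2, 0.26 between pairs 1 and 3 and -0.13 between pairs 2 and 3. These describe features, which are not independent replicates and share libraries within a pair. A log2 ratio of at least 1 in either direction was reached in some pair by 15136 features (38.1%), but only 10074 (25.4%) had the same sign in all 3 pairs. Of those, 4110 were higher in BS (10.4%) and 5964 lower (15%). A feature was called consistent when its log2 ratio was at least 1 in all 3 pairs, or at most -1 in all 3. The ratio was taken on CPM (counts scaled by library size and TMM factor), with 0.5 CPM added. There were 79 consistent features higher in BS (0.199% of 39694) and 90 lower in BS (0.227%). The smallest ratio just inside the limit was 1.00 and just outside it 0.99 for features higher in BS. On deposited FPKM with 0.5 added, which leaves out TMM, divides by length and gives the added value another meaning, the split was 47 higher and 266 lower. With RLE size factors in place of TMM it was 79 higher and 84 lower.

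**Figure D1:**
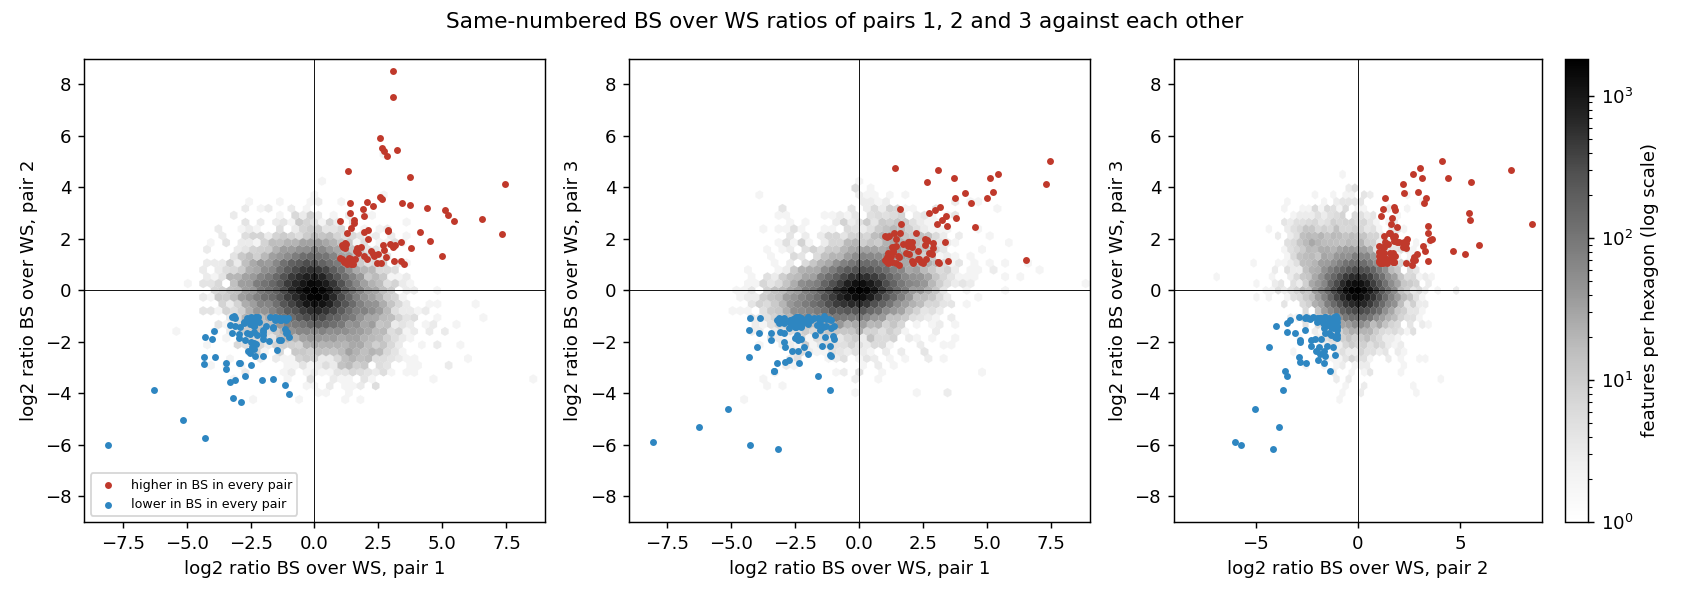
Each panel plots the log2 ratio of BS over WS in one same-numbered pair (x axis) against that in another pair (y axis) for the 39694 features with enough counts, with gray hexagons for the number of features on a log scale. The 79 features higher in BS in every pair (red) and the 90 lower in every pair (blue) lie in the corners, while most features scatter around 0 with r of -0.20, 0.26 and -0.13.

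Markers of muscle differed in opposite directions between pairs. The 64 features annotated to the Z disc, sarcomere or other muscle terms summed to 2378, 79.5 and 1178 TPM in BS1 to BS3, against 972, 1205 and 272 TPM in WS1 to WS3. BS was thus higher in pairs 1 and 3 and WS was higher in pair 2. Of the 24 muscle features tested, 2 were higher in BS and 0 lower at an unadjusted p of at most 0.05, their median log2 fold change was 0.41 (-0.03 over all features tested), and of 19 with enough counts 0 were consistent in either direction. Connective tissue features summed to 38.5 to 64.4 TPM in BS and 49.7 to 65.7 TPM in WS, immune features to 35.3 to 77.0 and 47.5 to 69.8 TPM, epithelial features to 19.7 to 130 and 40.6 to 61.0 TPM, and features of dividing cells to 37.8 to 71.1 and 56.0 to 75.6 TPM. Heme-binding features summed to 39.7 to 200 TPM in BS and 46.3 to 122 TPM in WS. For nerve, 0 of 50 features had enough reads to be tested, and 16 were at 0 in all 6 libraries. The groups overlapped in every one of these sums. The part of muscle in the results below was not tested.

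**Figure D2:**
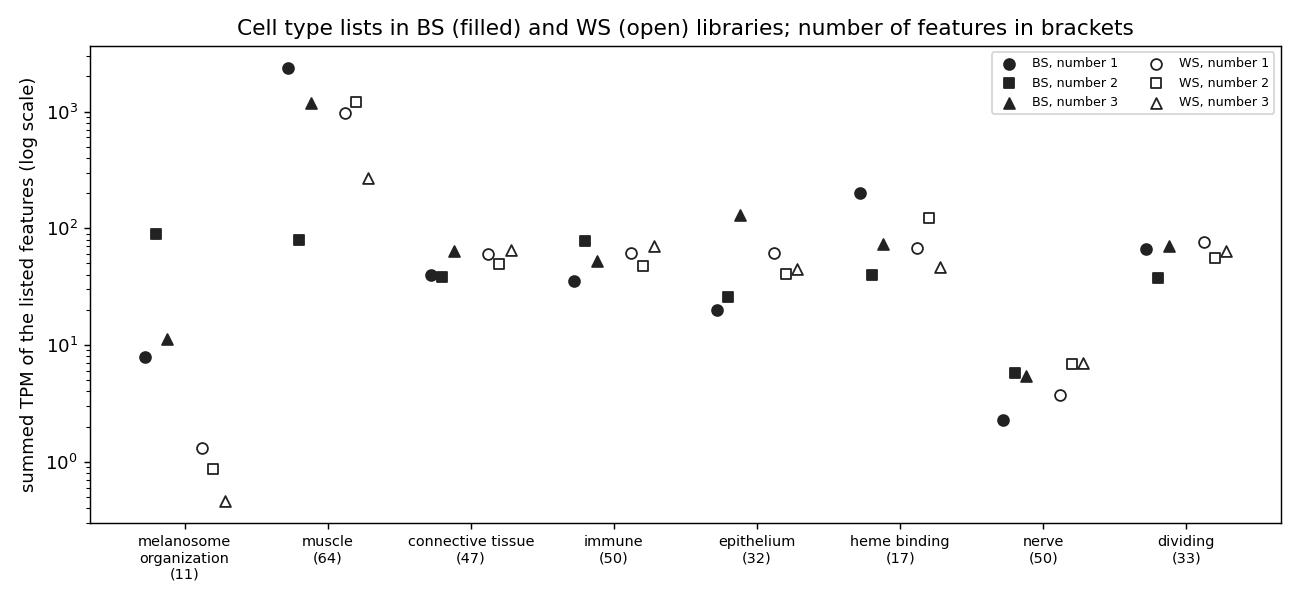
Summed TPM (log scale) of the features listed for each cell type in the BS (filled) and WS (open) libraries, with 1 symbol per library number. The muscle sum is 79.5 TPM in BS2 and 1205 TPM in WS2 but higher in BS than in WS in the other two pairs, while the melanosome organization sum is 7.89 to 89.4 TPM in BS and 0.46 to 1.32 TPM in WS.

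Most pigment features with enough reads were higher in BS and the Asip features were lower, with a median log2 fold change of 5.06 over both together. The study's supplementary tables for BS against WS put 27 features under 8 pigment terms or pathways, from melanin synthesis to melanocortin receptors. The study drew these terms from features it had already selected as different between BS and WS in these libraries, so their direction is not independent evidence. Of the 27 features, 14 had enough reads to be tested, and 11 of them were higher and 2 lower in BS at an unadjusted p of at most 0.05, with 0 past the FDR threshold. Of all features tested, 0.878% were higher and 1.1% lower at this p. The median log2 fold change over all features tested was -0.03, beside the 5.06 of these 14. Among the 11 with at least 20 counts in each pair, 7 were consistent features higher in BS and 2 consistent features lower in BS, beside 0.199% and 0.227% of all features with enough counts. Without pair 2 the number higher at an unadjusted p of at most 0.05 was 7 of the 27. With all 3 pairs, the features higher at this p were 3 of 5 of melanin biosynthetic process, 8 of 11 of melanosome organization, 5 of 7 of melanosome, 4 of 5 of eye pigmentation, 1 of 7 of melanocyte differentiation, 4 of 10 of Melanogenesis, 3 of 6 of tyrosine metabolism and 0 of 3 of melanocortin receptor activity. The 2 lower features belong to Melanogenesis. DESeq2 with the block called 8 of the 27 and the likelihood ratio test called 9, beside 84 and 98 of all 68812 features tested.

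Tyrosinase was low but present in BS and near 0 in WS. The study's pathway links assign the tyrosinase orthologue to 2 features. Features that share an orthologue name are called copies from here on. Whether they are separate genes or parts of 1 gene was not tested, so copies that agree may not be separate results. TRINITY_GG_118902_c0_g1 (1786 bp) was at 0.63, 3.96 and 0.96 FPKM in BS1 to BS3, against 0, 0.10 and 0.09 FPKM in WS1 to WS3. The log2 ratios in pairs 1 to 3 were 1.94, 3.57 and 1.45, and its log2 fold change was 5.07 (standard error 0.97, unadjusted p = 0.003, FDR 1.00, edgeR's quasi-likelihood test with the block). All BS libraries lay above all WS libraries, as they did for 1.44% of all features tested. The copy TRINITY_GG_98757_c0_g1 was at 0.16, 2.88 and 0.03 FPKM in BS and listed at 0 in all WS libraries, and it had too few reads to be tested. Summed over both copies, tyrosinase had 18, 243 and 26 counts in BS and 0, 3 and 2 in WS.

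Tyrosinase-related protein 1 had a higher TPM than tyrosinase in every BS library. The orthologue is assigned to 3 features, and their sum was 4.94, 32.4 and 5.62 TPM in BS1 to BS3 against 0.86, 0.35 and 0.05 TPM in WS1 to WS3. This is 5.74-fold and 92.5-fold higher in BS in pairs 1 and 2. In pair 3 BS had 348 counts of the orthologue and WS had 2, under the floor of 3 counts. TRINITY_GG_142711_c33_g1 (1936 bp) was at 7.12, 45.0 and 8.53 FPKM in BS against 1.07, 0 and 0 FPKM in WS, with a log2 fold change of 7.04 (standard error 1.87, unadjusted p = 0.0121, edgeR's quasi-likelihood test with the block). The log2 fold change of TRINITY_GG_142711_c33_g1 was 13.24 without pair 1 and 4.86 without pair 2. TRINITY_DN162538_c5_g1 (1947 bp) was at 3.03, 32.8 and 2.96 FPKM in BS against 0.43, 0.74 and 0.04 FPKM in WS, with log2 ratios of 2.72, 5.43 and 3.0 in the pairs and a log2 fold change of 5.04 (standard error 0.68, unadjusted p = 0.000591, same test). Both were consistent features and their groups did not overlap, as for 55 of the 79 consistent features higher in BS. Of all features tested, 1.44% did not overlap with BS higher. The third copy, TRINITY_GG_132409_c0_g1, was at 0.32, 8.26 and 0 FPKM in BS against 0.24, 0 and 0.05 FPKM in WS, so only pair 2 showed a clear difference.

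Features annotated to both eye pigmentation and melanosome organization were near 0 in WS. The 5 features summed to 1.79, 53.7 and 3.96 TPM in BS, against 0, 0.16 and 0.05 TPM in WS. TRINITY_GG_93899_c30_g1 (3284 bp) had the smallest p of all features tested. It was at 0.20, 26.5 and 1.66 FPKM in BS against 0, 0.03 and 0 FPKM in WS, with a log2 fold change of 10.10 (standard error 0.51, unadjusted p = 4.47e-06, FDR 0.308, edgeR's quasi-likelihood test with the block). With only 9 counts in BS1 it was not among the features with enough counts in every pair. TRINITY_GG_163435_c1_g1 (1675 bp) was at 1.18, 20.5 and 1.03 FPKM in BS against 0, 0.07 and 0 FPKM in WS, with a log2 fold change of 8.63 (standard error 0.58, unadjusted p = 1.86e-05, FDR 0.638, same test). Its log2 ratios were 2.57, 5.92 and 1.78. The same limit holds for TRINITY_GG_163435_c1_g1, with 0, 2 and 0 counts in WS and a log2 fold change of 2.16 to 8.88 across settings. TRINITY_DN160804_c0_g1 ranked above it among the consistent features. In BS1 to BS3 it had 1.55, 79.6 and 2.12 FPKM and in WS1 to WS3 0, 0.01 and 0 FPKM, which gave log2 ratios of 3.05, 8.52 and 2.59. TRINITY_GG_163448_c1_g1 did not follow library 2. It was at 0.86, 0.54 and 1.02 FPKM in BS against 0, 0.07 and 0.10 FPKM in WS. The last of the 5, TRINITY_GG_93899_c19_g1, had 0, 15.7 and 2.28 FPKM in BS against 0, 0.20 and 0 FPKM in WS, and could not be tested.

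Among the other melanosome features, TRINITY_DN162275_c0_g3 (568 bp) was consistent. It had 6.23, 30.2 and 5.60 FPKM in BS against 0.41, 0 and 0 FPKM in WS, with a log2 fold change of 6.03 (standard error 1.29, unadjusted p = 0.00497, edgeR's quasi-likelihood test with the block). Its log2 ratios were 2.30, 3.27 and 1.52. WS had 2, 0 and 0 counts, under the floor of 3 counts, and the log2 fold change was 3.35 to 8.90 across settings. TRINITY_GG_89175_c0_g1, of 312 bp, had 9.01, 38.2 and 19.2 FPKM in BS and listed at 0 in WS, but had too few reads to be tested. A receptor feature annotated to L-DOPA, tyrosine and dopamine binding and to melanosome organization, TRINITY_GG_190991_c7_g1, differed by a smaller and more even amount. It was at 1.66, 2.06 and 2.23 FPKM in BS against 0.94, 0.67 and 0.64 FPKM in WS, with log2 ratios of 1.18, 1.63 and 1.27. TRINITY_DN158633_c2_g1, a helicase feature with the melanosome term, had pair log2 ratios of 0.99, 1.02 and 0.24 and was not consistent.

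**Figure D3:**
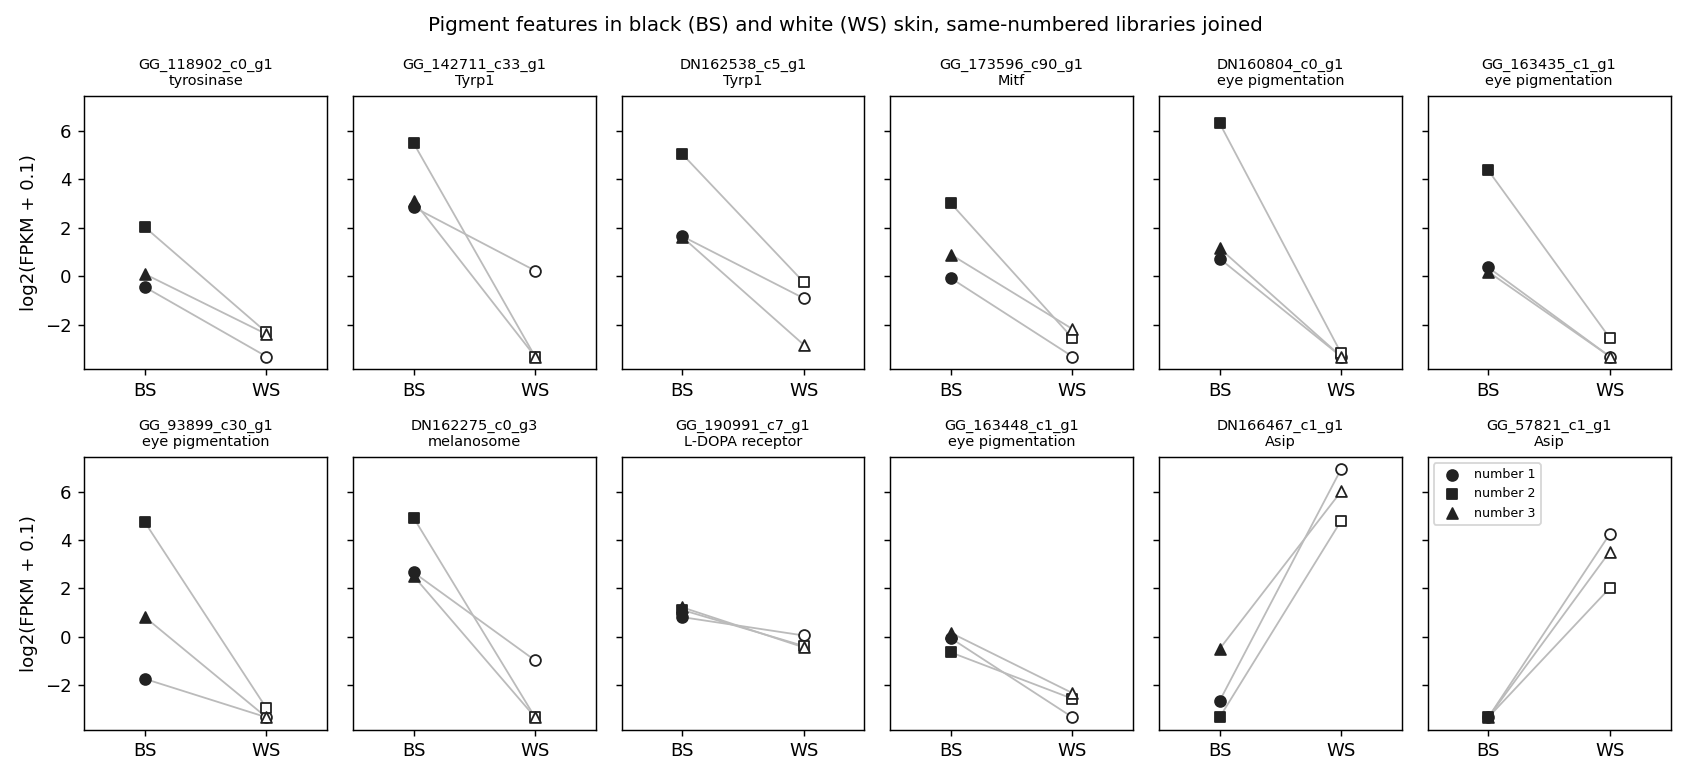
FPKM of 12 pigment features on the log2(FPKM + 0.1) scale, with filled symbols for BS, open symbols for WS and lines joining same-numbered libraries. BS lies above WS in every pair for the first 10 features, with BS2 (square) the highest BS library in 8 of the 10, and below WS in every pair for the Asip features.

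Of the factors and receptors that act above melanin synthesis and were higher in BS, Mitf showed the clearest difference. Its orthologue is assigned to 3 features, with a sum of 0.74, 5.91 and 2.15 TPM in BS and 0, 0.03 and 0.06 TPM in WS. The longest, TRINITY_GG_173596_c90_g1 (3628 bp), was at 0.84, 7.92 and 1.75 FPKM in BS against 0, 0.07 and 0.12 FPKM in WS. Its log2 ratios were 3.23, 5.46 and 2.74, and the log2 fold change was 5.94 (standard error 0.92, unadjusted p = 0.00113, FDR 1.00, edgeR's quasi-likelihood test with the block). TRINITY_DN157234_c1_g1 was at 0.74, 6.83 and 0.80 FPKM and TRINITY_GG_152857_c1_g1 at 0, 0.96 and 1.86 FPKM in BS, both were listed at 0 in WS, and neither could be tested. The features with melanocortin receptor activity, which bind the hormones that Asip opposes, were too few in reads in all cases (0 of 3 tested). Together they had 7, 325 and 55 counts in BS and 0, 7 and 4 in WS. Of these, the melanocortin 5 receptor feature TRINITY_GG_56224_c5_g1 was at 0.27, 5.04 and 1.15 FPKM in BS against 0, 0.03 and 0 FPKM in WS. TRINITY_GG_112640_c6_g2 was at 0, 2.05 and 0.35 FPKM in BS against 0, 0 and 0.08 FPKM in WS, and TRINITY_DN162289_c1_g1 at 0, 1.12 and 0.28 FPKM in BS against 0, 0.17 and 0.08 FPKM in WS.

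Under melanocyte differentiation, TRINITY_GG_74172_c3_g1 was the only tested feature besides Mitf. It had 1.08, 8.22 and 2.37 FPKM in BS against 1.46, 1.94 and 1.19 FPKM in WS, with a log2 fold change of 1.29 (standard error 0.57, unadjusted p = 0.0690, edgeR's quasi-likelihood test with the block), or 0.59 without pair 2. The remaining features of the term, TRINITY_GG_111899_c1_g1, TRINITY_DN164516_c0_g1 and TRINITY_GG_191101_c96_g2, had at most 2.17 FPKM in any BS library and at most 0.18 FPKM in any WS library.

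The height of the pigment features differed strongly among the BS libraries. Of the 12 tested pigment features with a positive fold change, BS2 was the highest BS library for 10. The ratio of BS2 to the mean of BS1 and BS3 had a median of 5.43 over the 12 features, with a range of 0.574 to 43.4. Pair 2 had the largest log2 ratio for 11 of them. Of the 13 pigment features that could not be tested, 11 had their highest value of all 6 libraries in BS2.

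Asip went the other way and was the most consistently different feature in these libraries. TRINITY_DN166467_c1_g1 ranked first of the 90 features lower in BS. In BS1 to BS3 it had 0.06, 0 and 0.61 FPKM and in WS1 to WS3 122, 27.7 and 64.2 FPKM. Both Asip copies together had 1, 0 and 14.9 counts in BS, against 2723, 1039 and 1649 counts in WS. Its log2 ratios were -8.05, -6.02 and -5.87, so the smallest of its pair differences exceeded that of every other feature in either direction. The copy TRINITY_GG_57821_c1_g1, of which BS had 0 counts, ranked 4 of 90 with log2 ratios of -6.27, -3.88 and -5.30. It was at least 307-fold lower in BS, set against a floor of 3 counts over the BS group. The groups did not overlap for either copy, as was the case for 1.78% of all features tested with BS lower. WS1 was the highest and WS2 the lowest WS library for both copies. Aldehyde oxidase, the other listed feature that the study selected as higher in WS, was at 0 in all BS libraries and at 0, 5.50 and 2.41 FPKM in WS, below the filter.

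Most consistent features lay outside the pigment lists. Of the 79 higher in BS, 7 were pigment features, 14 were on the study's BS against WS lists and 65 were on none of them. Of the 90 lower in BS, 2 were pigment features and 4 were on those lists, which leaves 86. Of all 39694 features with enough counts, only 11 were pigment features and 28 were on those lists. Most consistent features therefore had to lie outside them. Any annotation was found for 19 of the 79 and 8 of the 90, since the supplementary tables annotate mainly selected features. The shares of genome-guided identifiers were 54.4% and 60%, against 56.4% of all features with enough counts, and median lengths were 1696 and 1425 bp against 1415 bp. In 11 features all 3 WS libraries were at 0 counts, and in 10 all 3 BS libraries were. Among all 39694 features with enough counts these numbers were the same, 11 and 10. A feature with enough counts and 0 in every library of 1 color passes the rule of 3 pairs by its definition. At an unadjusted p of at most 0.05 stood 76 of the 79 and 79 of the 90, which the rule favors because it uses the same ratios. DESeq2 with the block called 31 of the 79 and 31 of the 90, and the likelihood ratio test called 32 and 21. Of all 39694 features with enough counts they called 65 and 55. The rule favors these calls in the same way.

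The first of the features higher in BS was an annotated metabolic gene. TRINITY_GG_50688_c0_g1 (1665 bp), annotated to the peroxisome, fatty acid degradation and isomerase activity, was at 42.0, 4.94 and 13.3 FPKM in BS1 to BS3 and listed at 0 in all WS libraries. The log2 ratios were 7.45, 4.12 and 5.02. With counts pooled over each color, it was at least 526-fold higher in BS against a floor of 3 counts over the WS group. This is not a bound for each pair, since BS1 to BS3 had 859, 161 and 340 counts. BS1 was the highest library of this feature, unlike the pigment features. It was not on the study's BS against WS lists.

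TRINITY_DN99332_c0_g1 (594 bp), annotated as NAD(P)+ transhydrogenase of the inner membrane, was at 169, 5.94 and 32.2 FPKM in BS and listed at 0 in WS. Its log2 ratios were 7.31, 2.19 and 4.13. TRINITY_GG_120746_c64_g1 (1381 bp), annotated to protein import into the mitochondrial matrix, was at 2.97, 3.68 and 2.51 FPKM in BS and listed at 0 in WS, at least 74.6-fold higher.

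TRINITY_DN162563_c3_g1 (829 bp), annotated to neural crest cell fate commitment and dorsal/ventral neural tube patterning, was at 12.1, 6.87 and 10.4 FPKM in BS and listed at 0 in WS, at least 109-fold higher. TRINITY_DN164630_c0_g1 (1345 bp), a zinc ion binding feature with hindbrain and forebrain terms, was at 13.2, 2.23 and 11.7 FPKM in BS and listed at 0 in WS, at least 192-fold higher. In the other direction, TRINITY_DN165854_c0_g1 (1952 bp), annotated as a transcription factor with dopaminergic neuron differentiation and axon guidance terms, was at 0, 0.02 and 0 FPKM in BS against 2.05, 3.47 and 1.98 FPKM in WS. Its log2 ratios were -3.31, -3.55 and -3.13, and its log2 fold change was -7.59 (standard error 0.85, unadjusted p = 0.000245, FDR 1.00, edgeR's quasi-likelihood test with the block). BS had 0, 1 and 0 counts of it, under the floor of 3 counts, and the log2 fold change was -9.02 to -1.77 across settings.

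A photoreceptor feature was also higher in BS in every pair, with log2 ratios of 2.56, 3.61 and 1.99. TRINITY_GG_42678_c5_g1 (2589 bp), annotated to 11-cis retinal binding and detection of visible light, was at 0.71, 2.20 and 1.38 FPKM in BS against 0, 0.04 and 0.14 FPKM in WS. The log2 fold change was 5.32 (standard error 1.14, unadjusted p = 0.00490, edgeR's quasi-likelihood test with the block). TRINITY_GG_137557_c26_g1, an intermediate filament feature, was at 2.07, 2.20 and 3.88 FPKM in BS against 0, 0.62 and 0 FPKM in WS. TRINITY_GG_87596_c0_g1, annotated to the nuclear membrane, was at 4.95, 1.94 and 2.53 FPKM in BS and listed at 0 in WS.

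Of the lncRNAs selected in the study, 2 were consistent features, both higher in BS. Ccr_lnc6842391 (TRINITY_GG_68423_c9_g1) ranked 3 of 79 with log2 ratios of 3.73, 3.30 and 3.60, the closest agreement between pairs among the first 10 features higher in BS. TRINITY_GG_178219_c1_g1 (1155 bp), which the study lists for red against white skin and not for black, was at 33.1, 26.5 and 8.11 FPKM in BS against 11.7, 2.98 and 3.29 FPKM in WS. Its log2 ratios were 2.05, 3.41 and 1.16, and its log2 fold change was 2.36 (standard error 0.53, unadjusted p = 0.00594, FDR 1.00, edgeR's quasi-likelihood test with the block). The groups overlapped, since BS3 lay below WS1, while BS was higher within each pair. Few of the features listed by the study as different between BS and WS had enough counts. Listed as higher in BS, 1 of 18 lncRNAs and 23 of 197 mRNAs had enough, and 1 and 13 of them were consistent. Listed as higher in WS, 0 of 27 lncRNAs and 4 of 121 mRNAs had enough, and these 4 were consistent. Of all features with enough counts, 0.199% were consistent and higher in BS and 0.227% consistent and lower. The study chose those lists on these libraries.

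Besides Asip and the transcription factor, 5 annotated features were lower in BS in every pair. TRINITY_DN148006_c0_g1 (607 bp), annotated to cilium assembly, was listed at 0 in BS and at 10.1, 13.6 and 11 FPKM in WS, at least 52.2-fold lower in BS, with log2 ratios of -2.90, -2.83 and -2.79. TRINITY_GG_152735_c58_g1, an autophagosome assembly feature, was listed at 0 in BS and at 2.41, 2.72 and 4.29 FPKM in WS. TRINITY_GG_133844_c60_g1, annotated to frizzled binding and the Wnt and Melanogenesis pathways in the study's table for red against black skin and therefore not among the 27 features, was at 0.37, 0.06 and 0.41 FPKM in BS against 1.95, 1.69 and 2.94 FPKM in WS, with a log2 fold change of -2.84 (standard error 0.64, unadjusted p = 0.00622, edgeR's quasi-likelihood test with the block). TRINITY_GG_78402_c3_g1, a protein kinase feature of the cell cycle and p53 pathways, was at 0.05, 0.18 and 0.12 FPKM in BS against 0.98, 2.98 and 0.38 FPKM in WS. The groups did not overlap for any of these 4, as for 51 of the 90 consistent features lower in BS. Of all features tested, 1.78% did not overlap with BS lower, and the rule of 3 pairs favors such features. TRINITY_DN152261_c4_g2, a transporter feature, ranked last of the 90 and its groups overlapped, with 17.8, 1.2 and 133.9 FPKM in BS against 54.6, 45.8 and 354 FPKM in WS.

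Features without annotation held several of the first places. TRINITY_GG_71872_c58_g1 (17984 bp) ranked 2 of 79 with 4.55, 3.27 and 0.64 FPKM in BS against 0.49, 0.20 and 0 FPKM in WS, and TRINITY_GG_4799_c67_g1 (2478 bp) had 5.04, 1.43 and 5.23 FPKM in BS and was listed at 0 in WS. Lower in BS were TRINITY_GG_70828_c117_g1 (1153 bp), listed at 0 in BS and at 19.97, 22.9 and 16.0 FPKM in WS, and TRINITY_GG_26915_c2_g1 (1308 bp), listed at 0 in BS and at 9.11, 31.4 and 36.3 FPKM in WS. The deposited tables do not pair these identifiers with gene names.

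**Figure D4:**
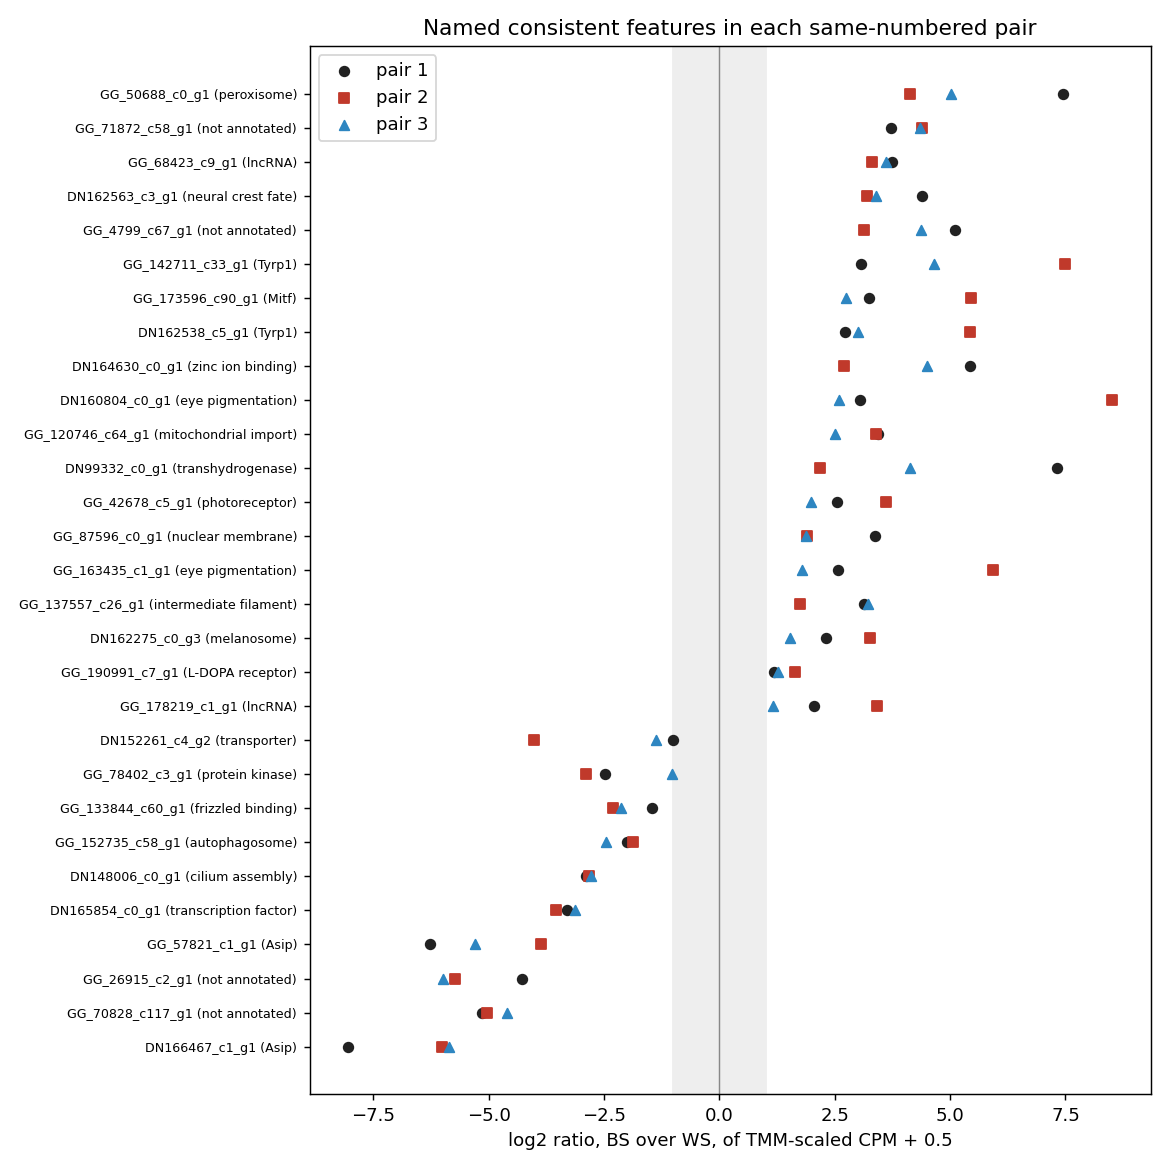
The log2 ratio of BS over WS in each same-numbered pair for the named consistent features, from the highest at the top, with the range from -1 to 1 in gray. Pair 2 (square) gives the largest ratio for all 7 pigment features, from 1.63 to 8.52, while pair 1 (circle) gives it for the peroxisome and transhydrogenase features at 7.45 and 7.31.

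The RS libraries, which the selection did not use, did not take one side. On the log2(FPKM + 0.5) scale, RS2 and RS3 were each nearer to their same-numbered BS library than to WS for 47 of the 79 features higher in BS. Of the 90 features lower in BS, RS2 was nearer to BS for 43 and RS3 for 56. Tyrosinase-related protein 1 summed to 2.48 TPM in RS2 and 0.11 TPM in RS3, and Mitf to 22.2 and 8.42 TPM, so Mitf was above its WS sums of 0 to 0.06 TPM in both. The features with neural tube, hindbrain and dopaminergic neuron terms differed between RS2 and RS3, as did Asip. TRINITY_DN162563_c3_g1 and TRINITY_DN164630_c0_g1 were at 8.16 and 2.79 FPKM in RS2 and listed at 0 in RS3, while TRINITY_DN165854_c0_g1 was listed at 0 in RS2 and at 4.34 FPKM in RS3. The Asip sum was 0 TPM in RS2 and 7.31 TPM in RS3. The part that body position has in these values was not tested.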

How the data were processed

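The authors used TopHat to map reads to the carp genome, built transcripts with Trinity, merged transcripts with CD-HIT and quantified genes with RSEM, per the study's methods. The versions in the submitters' processing notes are TopHat2 2.0.10 and RSEM 1.2.21, and the study's methods name another RSEM version. The deposited expected counts are RSEM's unnormalized estimates. The deposited TPM values are shares scaled to a fixed total per library, and the deposited FPKM values are read pairs per kilobase, scaled by the assigned total. Each table holds 1 library, and every column used was mapped to a sample (0 left out). The members and lists below were chosen with earlier results of these data known.

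Expected counts were rounded, filtered by filterByExpr (minimum count 10), scaled by TMM and tested in BS and WS only with edgeR 4.0.16 (quasi-likelihood test, replicate block) in R 4.3.3. Standard errors were derived from each fold change and the F value of its test. Alternatives used DESeq2 1.42.0 and limma 3.58.1, and tables and figures Python 3.11.15 and pandas 2.3.3. Groups and replicate numbers come from the sample titles. The labels say that the 3 colors came from the same 3 fish, though not in words that a number marks a fish. Deviations of same-numbered libraries from their group means correlated at 0.52, 0.63 and 0.56 and those of other BS and WS libraries at -0.48 to -0.01, so the numbers were used as pairs. Deviations cancel out within a color, which favors negative values for the others. On log2 CPM without this centering, same-numbered libraries correlated at 0.77 to 0.87 and others at 0.52 to 0.75. Fragment length also differed by number, so these values do not show that a number marks a fish. The p-values measure the spread between these pairs. Scripts were tested on simulated data.

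Consistent features needed at least 20 counts in the higher library of every pair. Named were every feature of the 8 pigment terms in the study's BS against WS tables, the first 15 annotated and 2 unannotated consistent features in each direction by the smallest absolute pair ratio (8 annotated features lower in BS existed), and consistent lncRNAs of the study. Orthologue names were inferred from which pathways list a feature and link an orthologue. Cell type lists come from the gene ontology table of predicted lncRNA targets, chosen by the study through correlation across these libraries and read here in the part shown. A count of 3, taken as the floor, is 0.12 to 0.203 CPM in BS and 0.13 to 0.218 CPM in WS, and covers counting error only. Fold changes given as at least a value pooled the counts over the libraries of a color, so they are not bounds for each pair. Sequences of the features were not analysed here.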

Additional observations from a re-analysis of the deposited data

Results flagged for a closer look

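In 5 of the named features that were consistently higher in BS, by the rule of 3 pairs, all 3 RS libraries, which the comparison did not use, also lay above all 3 WS libraries. The lowest RS value of TRINITY_GG_173596_c90_g1, the Mitf orthologue, was 0.49 FPKM, against a highest WS value of 0.12 FPKM. That of TRINITY_GG_42678_c5_g1, the photoreceptor feature, was 0.63 FPKM against 0.14 FPKM in WS. The melanosome feature TRINITY_DN162275_c0_g3 had at least 1.05 FPKM in RS and at most 0.41 FPKM in WS. The nuclear membrane feature TRINITY_GG_87596_c0_g1 had at least 1.17 FPKM in RS and was listed at 0 in WS. The lncRNA feature TRINITY_GG_178219_c1_g1 had at least 12.4 FPKM in RS and at most 11.7 FPKM in WS. The named features were chosen partly for lower values in WS, so RS above WS was favored in advance. The study had already listed TRINITY_GG_178219_c1_g1 for red against white skin on these libraries. The share of all features with RS above WS was not counted, and no test was run on these values.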

How the results depend on the processing

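Calls at an FDR of at most 0.05 numbered 0 with the block and 0 without the replicate block, with RLE size factors, a filter of 1 CPM in 3 libraries, all 9 libraries, robust empirical Bayes, identical features kept once, limma-voom, limma-trend or any pair left out. They numbered 84 with DESeq2 and the block, 43 with DESeq2 without it, 98 with the likelihood ratio test and 588 of 290342 features with no filter beyond a count above 0, where 242 of the calls were above 0 in at most 3 libraries. Pigment features higher in BS at an unadjusted p of at most 0.05 numbered 11 with the block and 10 without the pairing, 17 with all 9 libraries and 21 without the filter, where more features were tested, and 7 to 14 when 1 pair was left out. Consistent features numbered 28 higher and 47 lower with a minimum of 50 counts, 133 higher with 10 counts, 15 higher and 11 lower with a log2 ratio of at least 2, 137 lower with a prior of 0.1 CPM, and 47 higher and 266 lower on deposited FPKM. From any 2 pairs there were 416 to 1319 higher and 379 to 717 lower, since fewer pairs had to agree. Of the 169 consistent features, 162 were kept with RLE size factors and 114 on FPKM. For the named features tested, 0 alternatives reversed the direction. Each had the same sign in all 3 pairs, and many were selected for that. A reversal was therefore unlikely in advance. Under an alternative 100 of their values passed the FDR threshold and 440 did not. Limma-trend on FPKM moved the median log2 fold change of all features to -0.27 and, with the smaller pseudocount of 0.1, to -0.39, against -0.03 with the block on counts. Low features went unseen below the floor of 3 counts, so a listed 0 is not absence.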

Other observations

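Lists of other pigment cell and lipid functions held few features with enough reads. The study drew these lists from features it had already selected as different between BS and WS. Their direction is therefore not independent evidence. Of all features tested, 0.878% were higher in BS at an unadjusted p of at most 0.05 by edgeR's quasi-likelihood test with the block. For pigment granule dispersal 1 of 2 features was tested and was higher in BS at an unadjusted p of at most 0.05 (log2 fold change 4.64), by edgeR's quasi-likelihood test with the block. For 11-cis retinal binding 2 of 2 features were tested and 1 was higher at such a p, and for actin binding 2 of 7 were tested and 2 were higher. For neural crest cell migration 1 of 3 features was tested and 0 passed. The actin binding features summed to 11.2, 0.94 and 100.1 TPM in BS and 2.98, 0.92 and 6.35 TPM in WS. Under osteoclast differentiation 1 of 4 features was tested, the Mitf orthologue, and under neuroactive ligand-receptor interaction 1 of 6, at a log2 fold change of 5.19. For beta-carotene monooxygenase activity and for the retinol, ether lipid, glycerophospholipid and arachidonic acid pathways 0 features could be tested. The glycerophospholipid features summed to 0.23, 0.47 and 0.19 TPM in BS, against 2.75, 0.54 and 3.22 TPM in WS. Arachidonic acid features summed to 0.23, 0.47 and 0.19 TPM in BS, against 2.49, 0.47 and 3.22 TPM in WS. Ether lipid features were not lower in BS, with 4.01, 0.47 and 3.73 TPM against 2.49, 0.47 and 3.22 TPM in WS. The ether lipid and arachidonic acid lists had equal WS sums, and the glycerophospholipid and arachidonic acid lists equal BS sums. The sums of these lipid lists are therefore not separate results.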
